A study of Mus musculus with 13 samples.

Results

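The libraries described here are those of a stroke study in which no stroke was made. They comprise 4 libraries from sham-operated mice whose microglia had been depleted (sham_MG_DE) and 3 from sham-operated mice that kept them (sham_MG_CON), 7 of 13 libraries in all, chosen by their titles and by no measured value. All mice were CX3CR1creER/+ and Rosa26iDTR/+. The first allele expresses a tamoxifen-inducible Cre recombinase from Cx3cr1, the gene of the fractalkine receptor, and the second a diphtheria toxin receptor that cells make once Cre has acted. Both groups were given 2 doses of tamoxifen at 7 to 8 weeks of age. The sham_MG_DE mice then received diphtheria toxin at 50 ng per g body weight on 3 days, 30 days after tamoxifen, and the sham_MG_CON mice normal saline. A pair of groups with the same alleles and injections served for comparison, tMCAO_MG_DE (n = 2) and tMCAO_MG_CON (n = 4), in which the middle cerebral artery had been occluded for 60 min. A treatment entry of tMCAO_MG_CON library 4 names sham surgery, and its group here follows the title.

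Some features limit these groups as a model. Cx3cr1 is active in microglia and also in other mononuclear phagocytes. No group received toxin without the receptor, so effects of the toxin and of the loss of microglia cannot be told apart. The labels number the locus of the toxin receptor differently in most libraries, and this was read as 1 genotype. The male mice were operated on at 6 to 8 weeks per the labels, which is younger than the tamoxifen schedule allows, so the age is not settled. The labels name neither the part of the brain nor the time of sampling. Libraries carry identifiers of their own, but nothing states that each came from a separate mouse, so p-values measure the spread between libraries. In edgeR that spread was estimated over all 13 libraries, those of occluded mice included.

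Microglia are the resident macrophages of the brain. Their survival depends on the receptor Csf1r and its ligands Csf1 and Il34, and their homeostatic state on TGF-beta and on transcription factors such as Spi1 (PU.1), Irf8 and Sall1. They sense and clear debris through Trem2, Fc receptors, Toll-like receptors and complement, and exchange signals with astrocytes, oligodendrocyte precursors and neurons. Border macrophages of the meninges and perivascular spaces form a separate population marked by Mrc1, Cd163, Lyve1 and Pf4.

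Total counts lay between 16657017 and 22080367 in depleted libraries and between 17104409 and 19260643 in control libraries, and 16940 genes were tested. Levels are given as CPM, counts scaled to a TMM-adjusted library total, and changes as log2 fold changes ± SE, depleted over control, from edgeR's quasi-likelihood test with Benjamini-Hochberg adjustment. A gene was called when its adjusted p was under 0.05. Brain markers were present in all 7 libraries. The synaptic gene Snap25 lay at 3087 to 3519 CPM in depleted and 3291 to 3689 CPM in control libraries, and the myelin gene Mbp at 325.4 to 379.8 CPM and 418.9 to 497.4 CPM, with neither past the test (edgeR adjusted p = 0.23 and 0.099). The monocyte marker Ly6c2 and the B cell marker Cd79a had too few counts to be tested.

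Depleted library 1 stood apart from the other depleted libraries. On the first principal component of the 7 libraries, which held 48.85% of the variance, its score was -6.17, where the other 3 depleted libraries scored 19.9 to 29.5 and the controls -26.5 to -21.7. Across genes it correlated at r = 0.983 to 0.985 with the other depleted libraries and at 0.987 to 0.989 with the controls. Depleted library 3 and control library 2 shared high counts of blood genes. The calgranulins S100a8 and S100a9 summed to 1.35, 0.955, 24.6 and 1.03 CPM in depleted libraries 1 to 4 and to 0.805, 24.1 and 1.24 CPM in control libraries 1 to 3, and hemoglobin genes were also highest in these libraries, with 31.6 CPM in depleted library 3 and 29.7 CPM in control library 2. The part of either feature in the results was not tested, and counts of gene lists without these libraries are given after the single results or beside them.

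Promoters are shown for genes of lists that moved together, and only where they hold a match to the motif of the list. Others that were searched, named below, held none and are not shown. Hmgcs1 and Ciart were chosen after values were seen. The sequences shown are the 250 bases before the RefSeq start site on GRCm38.p6. They run 5′ to 3′ on the gene's strand, with matches to a searched motif in capitals. Trem2 (chr17:48346151-48346400, plus strand) and Cd33 (chr7:43533172-43533421, minus strand), a lipid-sensing and a sialic acid-binding receptor of microglia, each hold 1 match to the PU.1 core GAGGAA, at -40 on the opposite strand in Trem2 and at -226 in Cd33. Hmgcs1 (chr13:119690101-119690350, plus strand), an early enzyme of cholesterol synthesis, holds 1 match to the SREBP site TCACNCCAC at -137, and Ciart (chr3:95882229-95882478, minus strand), a repressor within the circadian clock, holds 3 matches to the E-box CACGTG, the site of the clock factors, at -116, -58 and -44.
Trem2: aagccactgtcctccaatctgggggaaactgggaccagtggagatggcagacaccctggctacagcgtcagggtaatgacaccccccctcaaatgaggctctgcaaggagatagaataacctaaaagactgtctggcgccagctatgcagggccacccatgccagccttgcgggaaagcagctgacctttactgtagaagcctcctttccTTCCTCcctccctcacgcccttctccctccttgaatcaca
Cd33: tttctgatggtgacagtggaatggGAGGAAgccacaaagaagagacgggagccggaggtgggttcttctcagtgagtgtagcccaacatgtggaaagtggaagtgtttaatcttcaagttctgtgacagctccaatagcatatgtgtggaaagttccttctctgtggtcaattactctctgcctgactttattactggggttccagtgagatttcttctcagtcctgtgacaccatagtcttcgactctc
Hmgcs1: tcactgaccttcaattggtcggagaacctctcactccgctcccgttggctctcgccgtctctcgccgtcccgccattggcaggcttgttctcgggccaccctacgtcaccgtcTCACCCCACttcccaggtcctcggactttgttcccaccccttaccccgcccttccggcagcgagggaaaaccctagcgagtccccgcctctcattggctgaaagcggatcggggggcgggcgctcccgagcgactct
Ciart: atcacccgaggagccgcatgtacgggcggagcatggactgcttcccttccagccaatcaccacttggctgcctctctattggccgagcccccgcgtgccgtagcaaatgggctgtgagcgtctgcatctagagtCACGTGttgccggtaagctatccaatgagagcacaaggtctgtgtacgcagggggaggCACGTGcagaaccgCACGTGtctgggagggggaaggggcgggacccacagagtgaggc

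Motifs were searched on both strands from 250 bases before to 50 after the start. GAGGAA was in 28.28% of the 32851 RefSeq promoters. Of the 22 microglial surface and secreted-protein genes, 15 had a promoter there, and 7 of these held GAGGAA. List counts here are of genes with a match in any of their promoters, while the shares of all are per promoter. List counts and shares are thus not on the same scale. The letters GGAANNGAA, a composite site of PU.1 and interferon regulatory factors, were in 8.24% of all promoters and in 0 of those 15. TCACNCCAC was in 1.24% of all promoters and in 1 of 12 of cholesterol genes, and the NF-kB letters GGGNNTTCC were in 5.82% of all and in 3 of 14 of NF-kB response genes. CACGTG was in 7.15% of all promoters and in 5 of 14 of clock genes. Other lists held these letters too. GGGNNTTCC was in 2 of 12 cholesterol genes and CACGTG in 3 of those 12. CACGTG was also in 2 of 14 NF-kB response genes and in 2 of 15 microglial genes. GAGGAA was in 5 of 14 NF-kB response genes. The promoters of Crybb1, Icam1, Tnfaip2 and Sc5d held no match to the motif of their list. A match is a description of the sequence and not a binding site. Sites that differ from the searched letters in a base are not found, so a promoter without a match may still hold a site.

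Between depleted and control libraries, 1161 genes were higher, 6.85% of those tested, and 760 were lower, 4.49%. Counts of calls in the gene lists below are to be read beside these shares. The groups did not overlap in CPM for 1006 of the genes called higher and 710 of those called lower. Over all genes tested 2036 were higher and 1847 lower with no overlap, so many separated genes were not called. Changes of at least 2-fold made up 383 of the higher and 172 of the lower calls. Over the called genes depleted library 1 had the same directions at a smaller size. These genes were called with library 1 in the fit, so the shared direction is partly fixed by the choice. Per-library log2 ratios to the control mean were taken with 0.5 CPM added to both terms. Over the higher calls their median was 0.24 in depleted library 1 and 0.64, 0.55 and 0.62 in depleted libraries 2 to 4. Over the lower calls it was -0.31 against -0.56, -0.51 and -0.59. The counts moved with each library. Higher calls numbered 2040, 457, 677 and 387 without depleted libraries 1, 2, 3 and 4 and 349, 472 and 357 without control libraries 1, 2 and 3, and lower calls 1685, 290, 427 and 283, and 262, 349 and 234. Without depleted library 3 and control library 2 together, 82 genes were higher and 137 lower. A fit of the 7 sham libraries alone gave 372 higher and 273 lower.

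Most of the falls with the smallest p were in microglial genes. Among the 12 falls with the smallest p, no overlap between groups and an average of 5 FPKM or more in the higher group, 9 are known from microglia, among them Csf1r, C1qa, C1qb, C1qc, Tmem119, Ctss, Fcrls and Itgb5. The others were Cmtm6, a stabiliser of the checkpoint ligand PD-L1 that the list of microglial surface genes also holds, Capns1, the small subunit of calpain proteases, and Scd1, the desaturase that makes monounsaturated fatty acids. Capns1 was at 57.1, 44.5, 50.6 and 48.9 CPM in depleted libraries and at 96.5, 87 and 91.8 CPM in control libraries. All 4 depleted values lay below all 3 control values, a change of -0.87 ± 0.10 (edgeR adjusted p = 0.00032). Scd1 was at 184.3, 151, 142.4 and 161.8 CPM in depleted libraries against 255.3, 265.4 and 269.8 CPM in control libraries, also with no overlap (-0.72 ± 0.08, edgeR adjusted p = 0.00036).

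The 12 rises chosen in the same way were smaller and held no microglial gene. They were Bak1, a pore-forming protein of apoptosis, H3f3b, a gene of the replacement histone H3.3, Zc3h6, the RNA helicases Dhx36, Ddx52 and Ddx24, Gcn1l1, a ribosome-bound activator of the amino acid stress response, Trio, a guanine exchange factor of neurons, Nom1, the splicing factors Eftud2 and Snw1, and the translation initiation subunit Eif3a. Bak1 was at 20.2, 29.5, 26.7 and 28.4 CPM in depleted libraries against 14.1, 15.1 and 14.4 CPM in control libraries, with library 1 lowest of the depleted and above every control (0.85 ± 0.12, edgeR adjusted p = 0.0016). Log2 changes of the other 11 ran from 0.37 for Eftud2 to 0.78 for Snw1. The 24 genes kept their calls without any single one of the 13 libraries. Snw1 and Bak1 overlap Slirp and Ggnbp1 on the opposite strand, and Zc3h6 overlaps Gm14027 on its own strand, so their counts are uncertain.

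Microglial surface receptors and secreted proteins fell almost as a whole. Of 22 tested genes 21 were lower and 0 higher. The median log2 change was -3.18, against a median near 0 for all genes tested. The 21 include Cx3cr1, whose call depended on single libraries and is not read as a measure of depletion below. Cx3cr1 is also in this median and in the percentages of control below. In bulk RNA, fewer microglia and less RNA per cell cannot be told apart. Csf1r, on chromosome 18 from 61100598 to 61132149 (plus strand, GRCm38), was at 7.57, 10.2, 16 and 6.1 CPM in depleted libraries against 92, 93.4 and 92.8 CPM in control libraries. Depleted library 3 was the highest of its group and still far below every control, and the change was -3.22 ± 0.24 (edgeR adjusted p = 4.1e-05). Hmgxb3 overlaps Csf1r on the opposite strand and did not pass the test (0.07 ± 0.07, edgeR adjusted p = 0.51). The adenosine receptor Adora3 had no count in any depleted library and 21, 19 and 19 counts in control libraries, at least 6.82-fold lower with a floor of 3 counts per library. It overlaps Tmigd3 on its own strand.

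The remaining level differed by gene and by library. As a percentage of the control mean, the 22 genes had a median of 14.9% in depleted library 1, 12.7% in library 2, 21.7% in library 3 and 6.72% in library 4. Averaged over the depleted libraries, 9 genes were at or below 10% of control, 8 between 10% and 25%, 2 between 25% and 50% and 3 above 50%. Those above 50% were Cmtm6 at 58.1%, the integrin subunit Itgb5 at 54.7% and Gpr84, a fatty acid receptor that was not called, at 62.5%. Tmem119 was at 8.17%, 5.55%, 14.5% and 0.994% in libraries 1 to 4 and Trem2 at 19.1%, 22.6%, 29% and 17.6%. Depleted library 3 kept the most of both genes and of Csf1r. P2ry6, a receptor for UDP at 41.6% on average, lost its call without depleted library 2 or 4 or control library 1 or 2 (edgeR adjusted p up to 0.12).

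**Figure D1:**
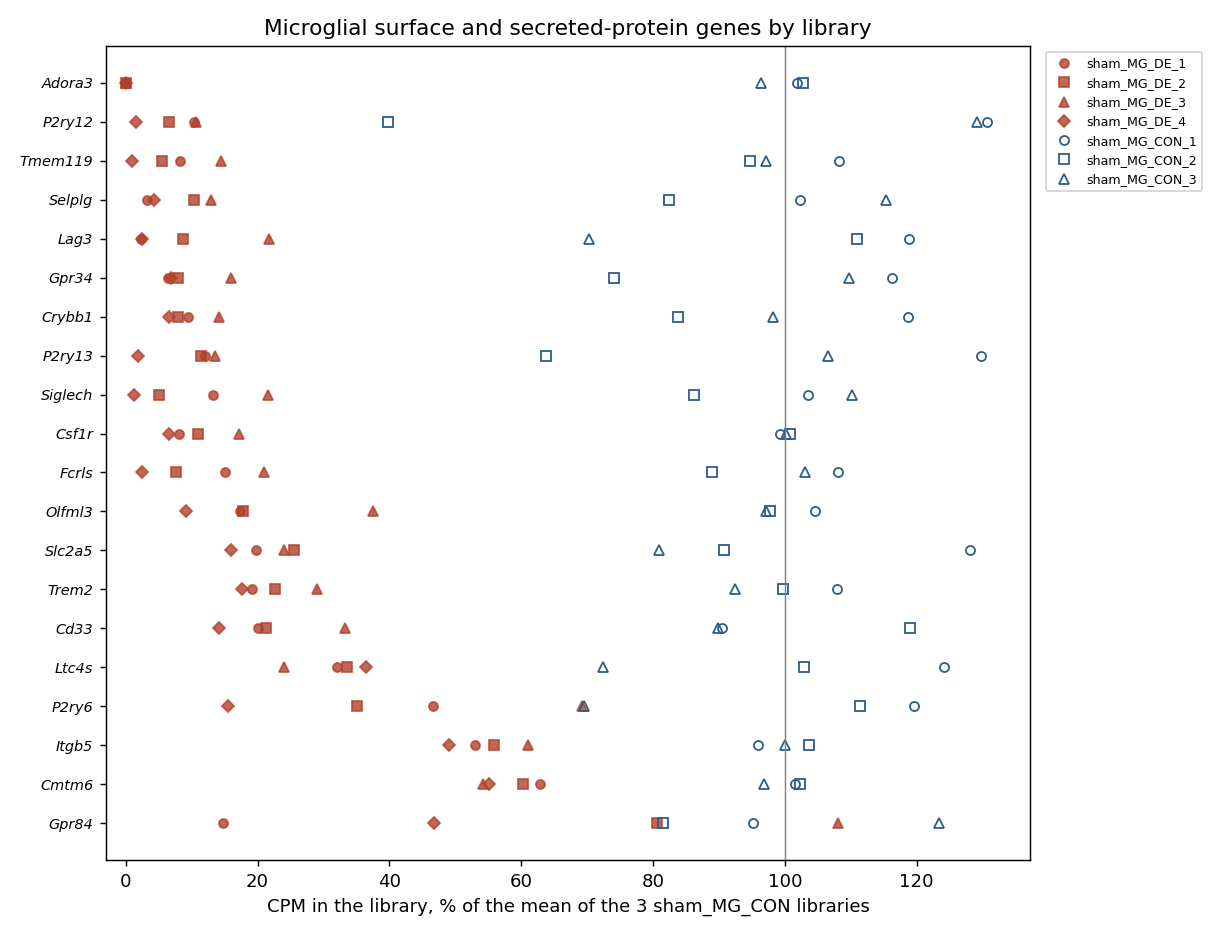
CPM of 20 of the 22 microglial surface and secreted-protein genes tested in each library, as a percentage of the mean of the 3 sham_MG_CON libraries; filled red symbols are the 4 sham_MG_DE libraries, open blue symbols the 3 sham_MG_CON libraries. Cx3cr1 is not among those shown. Adora3 is at 0% in every depleted library, Itgb5 and Cmtm6 at 49.1% to 62.8%, and Gpr84 spreads from 14.7% to 108%.

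Cx3cr1, whose locus carries the Cre, was at 1.41, 1.23, 0.305 and 0 CPM in depleted libraries against 1.13, 24.2 and 1.19 CPM in control libraries. Control library 2 alone was high, and the other 2 control libraries lay within the range of the depleted ones. Its call (-3.52, edgeR adjusted p = 0.04) ended without control library 2 (0.66), without any one of depleted libraries 2, 3 and 4 or of the tMCAO_MG_DE libraries, and without tMCAO_MG_CON library 1 or 4, and is not read as a measure of depletion here. For the purinergic receptor P2ry12, which steers microglial processes to ATP, control library 2 was instead the lowest control. P2ry12 was at 2.65, 1.68, 2.68 and 0.399 CPM in depleted libraries against 33.2, 10.1 and 32.8 CPM in control libraries (-3.78 ± 0.45, edgeR adjusted p = 0.00056), with no overlap. It overlaps Med12l on the opposite strand.

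Trem2 signalling and Fc receptors fell with the surface receptors, 17 of 20 lower and 0 higher, with a median of -1.31. Trem2 was at 1.73, 2.05, 2.62 and 1.6 CPM in depleted libraries against 9.76, 9.03 and 8.36 CPM in control libraries (-2.18 ± 0.21, edgeR adjusted p = 0.00017). The phosphatase Inpp5d, which limits Trem2 signalling, was at 5.46, 6.68, 6.89 and 5.81 CPM in depleted libraries against 14.5, 15.4 and 16 CPM in control libraries (-1.30 ± 0.11, edgeR adjusted p = 6.5e-05). Neither gene showed overlap. The low-affinity IgG receptor Fcgr3 fell by 2.02 on the log2 scale, the lysosomal protein Laptm5 by 2.20, the Src-family kinase Lyn by 1.17 and the adaptor Hcls1 by 1.48. Leaving out single libraries gave 14 to 17 lower.

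Of 14 microglial transcription factors 6 were lower and 1 higher. Irf5, an interferon regulatory factor, changed by -1.90 ± 0.24, Irf8 by -1.56 ± 0.25, Spi1 by -1.32 ± 0.22 and Sall1 by -0.95 ± 0.13 (edgeR adjusted p = 0.00095, 0.0044, 0.0053 and 0.0012). Sall1, a zinc finger factor of microglial identity that other brain cells also express, was at 13.4, 15, 11 and 12.6 CPM in depleted libraries against 24.5, 24.7 and 26.2 CPM in control libraries. The groups did not overlap. The 1 higher gene was Bhlhe41, which is also a clock repressor. It was at 37.8, 136.3, 88.1 and 85.6 CPM in depleted libraries against 41.5, 38.1 and 41.5 CPM in control libraries, so depleted library 1 lay below every control, and its call (1.11 ± 0.30, edgeR adjusted p = 0.033) ended without any one of depleted libraries 2, 3 and 4 or of the 3 controls (edgeR adjusted p up to 0.093).

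Among Toll-like receptors and their co-receptors 8 of 16 were lower and 1 higher. Unc93b1, which carries endosomal receptors to their compartment, changed by -1.32 ± 0.14 (edgeR adjusted p = 0.00027), and Tlr9, the receptor for unmethylated DNA, by -1.91 ± 0.37 (edgeR adjusted p = 0.0094). Lower calls numbered 4 and 3 without depleted libraries 2 and 4, and 3, 4 and 3 without control libraries 1, 2 and 3. Unc93b1 and Tlr9 kept their calls in each of these fits. The 1 higher gene, Tlr2, a receptor for bacterial lipoproteins, was at 1.35, 4.96, 3.54 and 2.62 CPM in depleted libraries against 1.07, 0.598 and 1.3 CPM in control libraries. Library 1 was close to the controls, and the call (1.65 ± 0.43, edgeR adjusted p = 0.028) ended without any one of depleted libraries 2, 3 and 4 or of the controls (edgeR adjusted p up to 0.096).

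Of 5 colony-stimulating factor receptors and 2 Csf1r ligands tested, 3 receptors were lower in edgeR, and DESeq2 called 6 of the 7 genes lower, all but Csf1. Csf3r, the granulocyte colony-stimulating factor receptor, was at 0.487, 0.318, 1.34 and 0.228 CPM in depleted libraries against 7.99, 10.7 and 9.43 CPM in control libraries, with no overlap (-4.01 ± 0.47, edgeR adjusted p = 0.00051). The 3 were Csf1r, Csf3r and Csf2rb2 (-1.82 ± 0.45), the last called only while depleted libraries 2 and 4 and control libraries 2 and 3 were all present (edgeR adjusted p up to 0.082). Csf2ra changed by -0.51 ± 0.16 and Csf2rb by -1.17 ± 0.42 (edgeR adjusted p = 0.063 and 0.087). Both were below the threshold without 1 depleted library, Csf2ra without library 1 (0.037) and Csf2rb without library 3 (0.045). Of the Csf1r ligands, Csf1 was at 24.1, 34.7, 23.6 and 24.5 CPM in depleted libraries against 20.8, 20.8 and 21 CPM in control libraries (0.36 ± 0.16, edgeR adjusted p = 0.15). Il34 was at 38.4, 25.8, 30.2 and 28.5 CPM in depleted libraries against 48, 34.3 and 46.2 CPM in control libraries (-0.48 ± 0.17, edgeR adjusted p = 0.079). The list count was 5 without depleted library 1, and Il34 passed under DESeq2 (adjusted p = 0.043) and, in edgeR, without it (edgeR adjusted p = 0.019) and without tMCAO_MG_CON library 3.

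Of the TGF-beta pathway, Tgfbr1, a signalling receptor, was at 14.5, 11.2, 9.81 and 12.1 CPM in depleted libraries against 30.4, 21.8 and 28.7 CPM in control libraries, with no overlap (-1.18 ± 0.18, edgeR adjusted p = 0.0028). Of 15 genes tested 3 were lower and 0 higher, and 1 was lower without depleted library 2, 3 or 4 or control library 2 or 3. Complement showed both directions. C1qa, C1qb and C1qc, neighbours on chromosome 4 between 136880129 and 136898803 (minus strand, GRCm38), changed by -1.95 ± 0.15, -1.94 ± 0.22 and -1.73 ± 0.15. C1qc was at 9.14, 9.5, 11.8 and 7.07 CPM in depleted libraries against 29.6, 34.8 and 28.7 CPM in control libraries. C4b, a component made by astrocytes among others, went the other way, at 27.4, 27.4, 35.5 and 32.2 CPM in depleted libraries against 7.3, 17.3 and 8.7 CPM in control libraries (1.47 ± 0.27, edgeR adjusted p = 0.0077). The groups did not overlap for C4b, and a close copy makes its count uncertain. C1qc is among the 12 falls named above, which were chosen to have no overlap between groups. Of 17 complement genes 5 were lower and 2 higher, with 1 higher without depleted library 2 or control library 2 or 3.

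**Figure D2:**
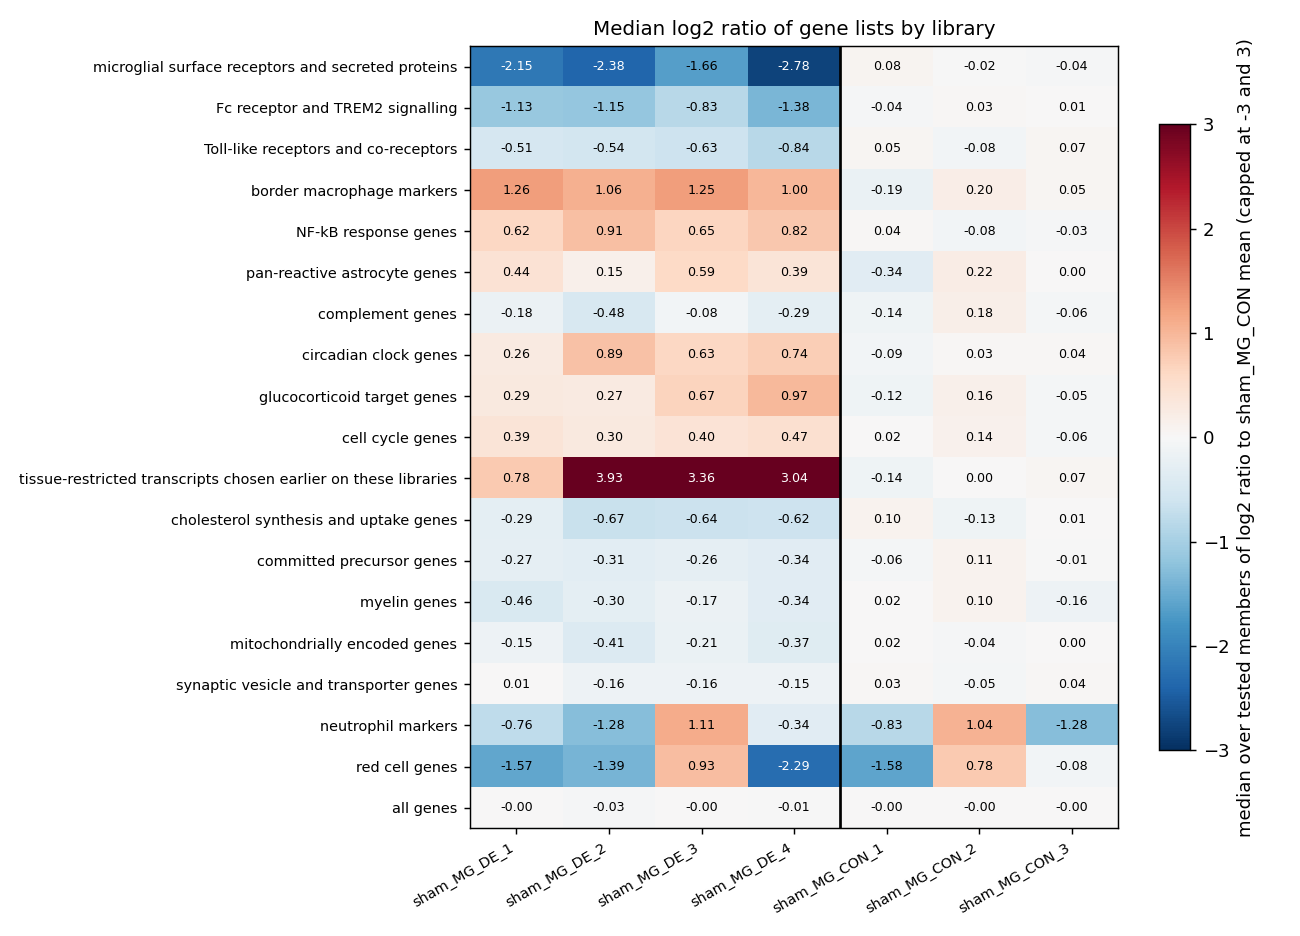
Median log2 ratio of each gene list to the control mean in each of the 7 sham libraries (columns, sham_MG_DE left of the line and sham_MG_CON right of it), over the members tested. Microglial genes lie between -2.78 and -1.66 in all 4 depleted libraries and border macrophage genes at up to 1.26. Clock genes lie at 0.26 in library 1 against 0.63 to 0.89 in the others. With 0.5 CPM added to both terms, ratios of genes with few counts are shrunken. They are not on the scale of edgeR's log2 changes.

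Of 20 genes that mark disease-associated microglia, a state seen around lesions and plaques, 1 was higher and 0 were lower. That gene was Lilrb4a, an inhibitory immune receptor, at 1.51, 1.73, 1.58 and 0.912 CPM in depleted libraries against 0.161, 0.179 and 0.282 CPM in control libraries, with no overlap (2.76 ± 0.42, edgeR adjusted p = 0.003). Its neighbour Lilr4b had 14, 17, 15 and 13 counts in depleted libraries against 0, 2 and 0 in control libraries, a count ratio of 21 with a 95% counting interval of 5.57 to 178. Both overlap Gm49339 on their own strand and are close copies of each other, so reads may be split between them. Without depleted library 1, 3 genes of the list were higher and 1 lower. Apoe, the lipid carrier of astrocytes and activated microglia, was at 695.6, 707.5, 640.6 and 581.1 CPM in depleted libraries against 564.6, 509.6 and 686.2 CPM in control libraries, which overlapped (0.16 ± 0.12, edgeR adjusted p = 0.4).

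Border macrophage markers rose in the same libraries in which microglial genes fell. Of 17 tested 10 were higher and 0 lower, with a median log2 change of 1.79. Another 4 of the 21 members had too few counts to be tested. Summed over the list, levels were 96.6, 103, 78.7 and 89.1 CPM in depleted libraries against 31, 47.8 and 38.5 CPM in control libraries. All depleted sums lay above all control sums, with the smallest p that an exact two-sided permutation test of 4 against 3 allows, 0.0571. The list was chosen with earlier results of these data known, so this p is a description. The count was 9 to 11 when single libraries were left out, 11 of them without depleted library 1.

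F13a1, the coagulation factor XIII subunit of tissue macrophages, was at 10.7, 13.6, 9.14 and 13.7 CPM in depleted libraries against 1.56, 2.75 and 2.32 CPM in control libraries (2.42 ± 0.25, edgeR adjusted p = 0.0002). Cd163, the hemoglobin scavenger receptor, was at 3.19, 3.91, 5.36 and 4.45 CPM in depleted libraries against 0.536, 0.658 and 0.395 CPM in control libraries (2.98 ± 0.38, edgeR adjusted p = 0.00088). Neither gene showed overlap. Mrc1, the mannose receptor, was at 17.5, 12.5, 9.57 and 11.8 CPM in depleted libraries against 3.38, 3.83 and 3.95 CPM in control libraries (1.79 ± 0.29, edgeR adjusted p = 0.005). Lyve1 was at 7.41, 3.77, 4.02 and 8.55 CPM in depleted libraries against 0.644, 0.479 and 0.621 CPM in control libraries. For Mrc1 depleted library 1 was the highest, so the rise was not smaller in the library that stood apart. Fcna, a ficolin that binds microbial sugars, was at 2.86 to 5.53 CPM in depleted and 0.161 to 0.299 CPM in control libraries. The sialoadhesin Siglec1 changed by 3.38 ± 0.49 and the carbonyl reductase Cbr2 by 2.67 ± 0.43. Pf4, at 1.3, 0.864, 0.67 and 0.741 CPM in depleted libraries against 0.107, 0.359 and 0.282 CPM in control libraries, rose by 1.83 ± 0.40 and lost its call without control library 1 or 3 (edgeR adjusted p up to 0.064).

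Lists of markers of other blood and border cells were short, and their calls stand beside 6.85% higher and 4.49% lower of all genes tested. Of 9 neutrophil markers 1 was higher, and of 8 choroid plexus genes 1 was higher and 1 lower, all with calls that depended on single libraries. Monocyte markers had 0 calls by edgeR among 6 tested, 0 at an unadjusted p under 0.05 and 0 under DESeq2, and summed to 20.3 to 27.1 CPM in depleted and 20.4 to 26.3 CPM in control libraries. Ccr2, the receptor that draws monocytes, was at 0.183 to 0.5 CPM in depleted and 0 to 0.479 CPM in control libraries (edgeR adjusted p = 0.85). Fibroblast and collagen genes, which the meninges express, summed to 397.2, 304, 383.9 and 369.7 CPM in depleted libraries against 324.7, 348 and 335.2 CPM in control libraries, and 1 of 14 was called, Islr, which lost its call without most single libraries (edgeR adjusted p up to 0.16). Col1a1 and Dcn did not pass (edgeR adjusted p = 0.46 and 0.65). Of 5 lymphocyte markers tested 2 were lower, with Trbc2, a constant segment of the T cell receptor, at 6.81, 4.18, 6.03 and 4.73 CPM in depleted libraries against 11.2, 10.5 and 11.3 CPM in control libraries (-1.02 ± 0.19, edgeR adjusted p = 0.0081). The other, the immunoglobulin chain Ighm (-0.73 ± 0.20), lost its call without depleted library 2, 3 or 4 or control library 1 (edgeR adjusted p up to 0.17). Lymphocyte markers summed to 43.5, 35, 45.3 and 33.3 CPM in depleted libraries against 82.4, 51.6 and 51.4 CPM in control libraries. The sums did not overlap, with the smallest p the exact permutation test allows, 0.0571. The part of any other cell type in the rise of the border macrophage genes was not tested.

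**Figure D3:**
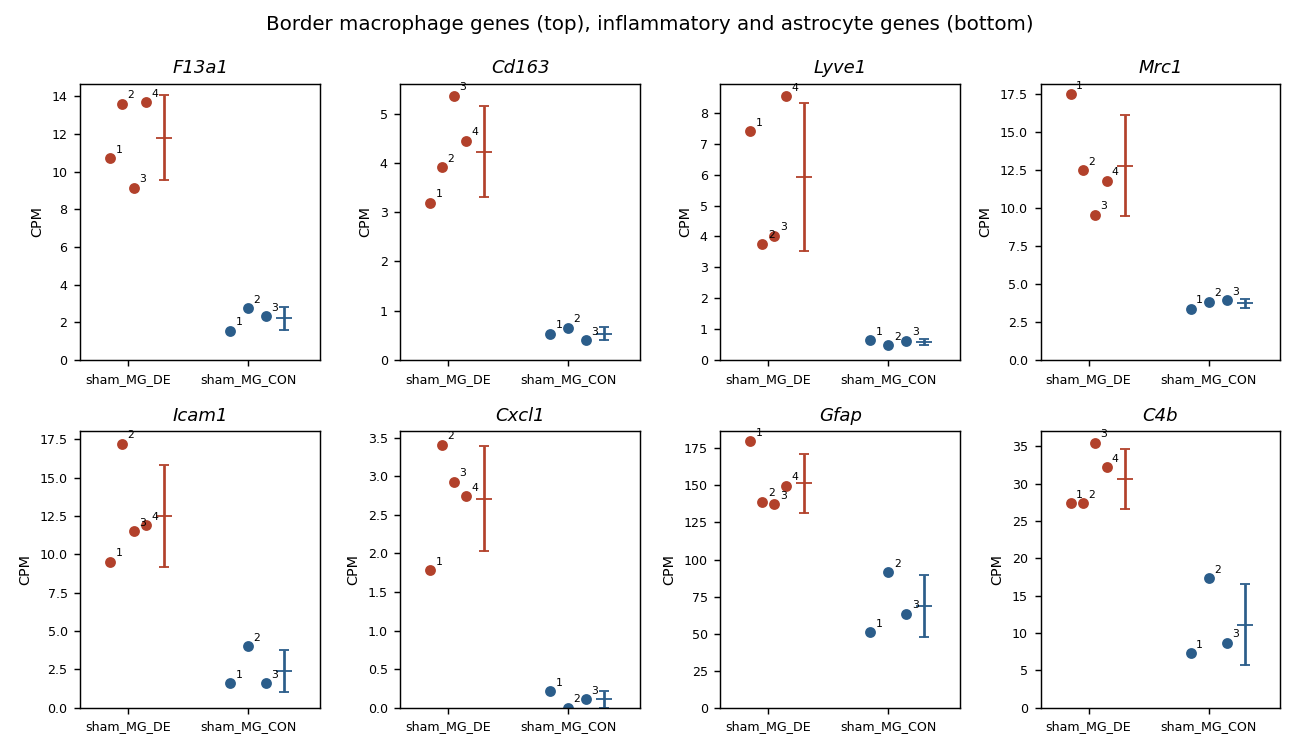
CPM of 4 border macrophage genes (top row) and of Icam1, Cxcl1, Gfap and C4b (bottom row) in the sham_MG_DE libraries (left in each panel) and the sham_MG_CON libraries (right); points carry the replicate number and bars show mean ± SD (n = 4 and 3). All depleted points lie above all control points in each of the 8 panels.

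Genes that answer to the transcription factor NF-kB rose in 9 of 18 tested, with 0 lower and a median of 1.34. Icam1, an adhesion molecule that leukocytes bind on endothelium, was at 9.52, 17.2, 11.5 and 11.9 CPM in depleted libraries against 1.61, 4.01 and 1.58 CPM in control libraries, with no overlap (2.39 ± 0.32, edgeR adjusted p = 0.0013). Gm47079 overlaps it on the opposite strand. Tnfaip2, induced by tumour necrosis factor, was at 1.51, 4.73, 4.02 and 3.88 CPM in depleted libraries against 0.644, 0.538 and 0.678 CPM in control libraries (2.50 ± 0.41, edgeR adjusted p = 0.0052). The neutrophil chemokine Cxcl1 had 33, 75, 48 and 48 counts in depleted libraries against 4, 0 and 2 in control libraries. Within the list the inhibitor Nfkbia, which NF-kB induces to stop itself, rose by 0.85 ± 0.17, and the subunits Relb and Nfkb2 by 1.33 ± 0.27 and 1.35 ± 0.29. These last 3 lost their calls without control library 3 (Nfkbia, edgeR adjusted p = 0.052), control library 2 (Relb, 0.05) or either of them (Nfkb2, up to 0.056), and the list then had 4 higher without control library 2 and 4 without control library 3. Without control library 2 and depleted library 3 together 1 was higher.

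Calls in the other inflammatory sets differed by list, beside 6.85% higher and 4.49% lower of all genes tested. Interferon-stimulated genes had 0 calls by edgeR among 20 tested, with 15 negative signs and a median of -0.16, and 3 were under an unadjusted p of 0.05. Antigen presentation genes had 0 calls among 11 of class I and 6 of class II, with 0 and 1 under an unadjusted p of 0.05. DESeq2 gave 0 calls in each of these 3 lists. Among CC chemokines and receptors 3 were higher and 1 lower of 14. The higher ones, Ccl2, Ccl12 and Ccl17, were at most 2.91 CPM in any library, and 0, 1 and 0 genes were higher without control libraries 1, 2 and 3. Without depleted library 1, 2 genes of the list were lower. Of 10 CXC chemokines and receptors 2 were higher, Cxcl1 and the interferon-induced Cxcl10, and 0 lower, with a median of 1.05. That count was 1 without depleted library 2 or 4 or any control.

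Gfap, the intermediate filament of astrocytes, was at 179.9, 138.9, 137.3 and 149.8 CPM in depleted libraries against 51, 91.4 and 63.4 CPM in control libraries, and no control reached a depleted value. Of 13 pan-reactive genes 3 were higher and 0 lower, and 1 without control library 1 or 3. The 3 were Gfap, Steap4 (2.14 ± 0.46), a metalloreductase whose call ended without either of these controls (edgeR adjusted p up to 0.058), and Cxcl10 (2.72 ± 0.72), whose call ended without depleted library 2 or 4 or any control (up to 0.11). Serpina3n, an acute-phase inhibitor strongly induced in reactive astrocytes, was at 18.7, 16.5, 26.8 and 24.4 CPM in depleted libraries against 11.6, 16.5 and 16.7 CPM in control libraries, with overlap (edgeR adjusted p = 0.16). In the set called A2, Emp1, a membrane protein of proliferating cells, was at 2.32, 3.68, 4.69 and 6.33 CPM in depleted libraries against 1.45, 1.26 and 1.64 CPM in control libraries (1.55 ± 0.30, edgeR adjusted p = 0.0097). Among 18 homeostatic astrocyte genes 1 was lower, and 0 of 11 genes of the set called A1 were called by edgeR. In the A1 set 4 genes were under an unadjusted p of 0.05, DESeq2 called 2 higher, and edgeR called 1 higher without depleted library 1 or tMCAO_MG_CON library 2 or 3. Aqp4, the water channel of astrocyte endfeet, was at 57.5 to 81.6 CPM in depleted and 70.7 to 83.3 CPM in control libraries (edgeR adjusted p = 0.47). The lower homeostatic gene, Atp1b2 (-0.38 ± 0.09), lost its call without depleted library 3 or 4 or any control (edgeR adjusted p up to 0.071), and 4 were lower without depleted library 1.

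Few vessel genes were called, but few of all genes were either, 6.85% higher and 4.49% lower. The counts of the vessel lists are not set apart from these shares. Of 20 blood-brain barrier genes 1 was lower, Lef1, which lost its call without depleted library 3 or 4 or any control (edgeR adjusted p up to 0.077). Of 12 endothelial activation genes 1, Icam1, was higher, with 10 positive signs. The count was 2 under DESeq2 and in edgeR without depleted library 1 or tMCAO_MG_CON library 3. Of 13 pericyte and smooth muscle genes 0 were called by edgeR, with 2 under an unadjusted p of 0.05 and 1 higher under DESeq2. Without depleted library 1 or tMCAO_MG_CON library 1 or 2, 1 pericyte or muscle gene was higher. The tight junction gene Cldn5 was at 21.7, 20.9, 17.8 and 16.5 CPM in depleted libraries against 23.2, 30 and 22.5 CPM in control libraries, and missed the threshold (-0.39 ± 0.12, edgeR adjusted p = 0.057). It passed without depleted library 1 (edgeR adjusted p = 0.025), when 4 barrier genes were lower, and 2 were lower without tMCAO_MG_CON library 2.

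Genes of committed oligodendrocyte precursors, cells that have left the precursor pool and begin to make myelin, were lower in 3 of 10, with a median of -0.30. Bcas1, which marks newly forming oligodendrocytes, was at 66.3, 61.9, 54.5 and 66 CPM in depleted libraries against 126.5, 127.2 and 103.8 CPM in control libraries (-0.94 ± 0.16, edgeR adjusted p = 0.0057). Gpr17, a receptor of the same stage that overlaps Lims2 on the opposite strand, was at 38.9, 34.7, 32.2 and 31 CPM in depleted libraries against 56, 50.8 and 56.1 CPM in control libraries (-0.67 ± 0.11, edgeR adjusted p = 0.006). Neither gene showed overlap. Of 10 earlier precursor genes 1 was lower, Olig1 (-0.34 ± 0.10, edgeR adjusted p = 0.042), whose call ended without any one of depleted libraries 2 to 4, the controls, the tMCAO_MG_DE libraries or tMCAO_MG_CON libraries 1 and 4 (up to 0.18). Myelin genes were lower in 4 of 14, all with calls that depended on single libraries: 2, 2 and 0 were lower without depleted libraries 2, 3 and 4, and 1 and 0 without control libraries 1 and 2. Among them Mag, the myelin-associated glycoprotein, was at 60.1, 61.4, 69.6 and 58.4 CPM in depleted libraries against 92.7, 89.4 and 83 CPM in control libraries, with no overlap (-0.50 ± 0.13, edgeR adjusted p = 0.026). Its call ended without depleted library 2 or 4 or any control (up to 0.088).

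Cholesterol synthesis and uptake genes were lower in 10 of 19, with 0 higher and a median of -0.60. Hmgcs1, whose promoter is shown above, was at 183.2, 127.8, 134.4 and 131.6 CPM in depleted libraries against 271, 180.2 and 231.6 CPM in control libraries. Depleted library 1 lay above the lowest control, and the call (-0.66 ± 0.17, edgeR adjusted p = 0.028) ended without depleted library 2, 3 or 4 or control library 1 or 3 (up to 0.12). The list had 13 lower without depleted library 1, and 3, 5 and 5 without depleted libraries 2, 3 and 4. It had 1 and 2 lower without control libraries 1 and 3, and 0 without depleted library 3 and control library 2 together.

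**Figure D4:**
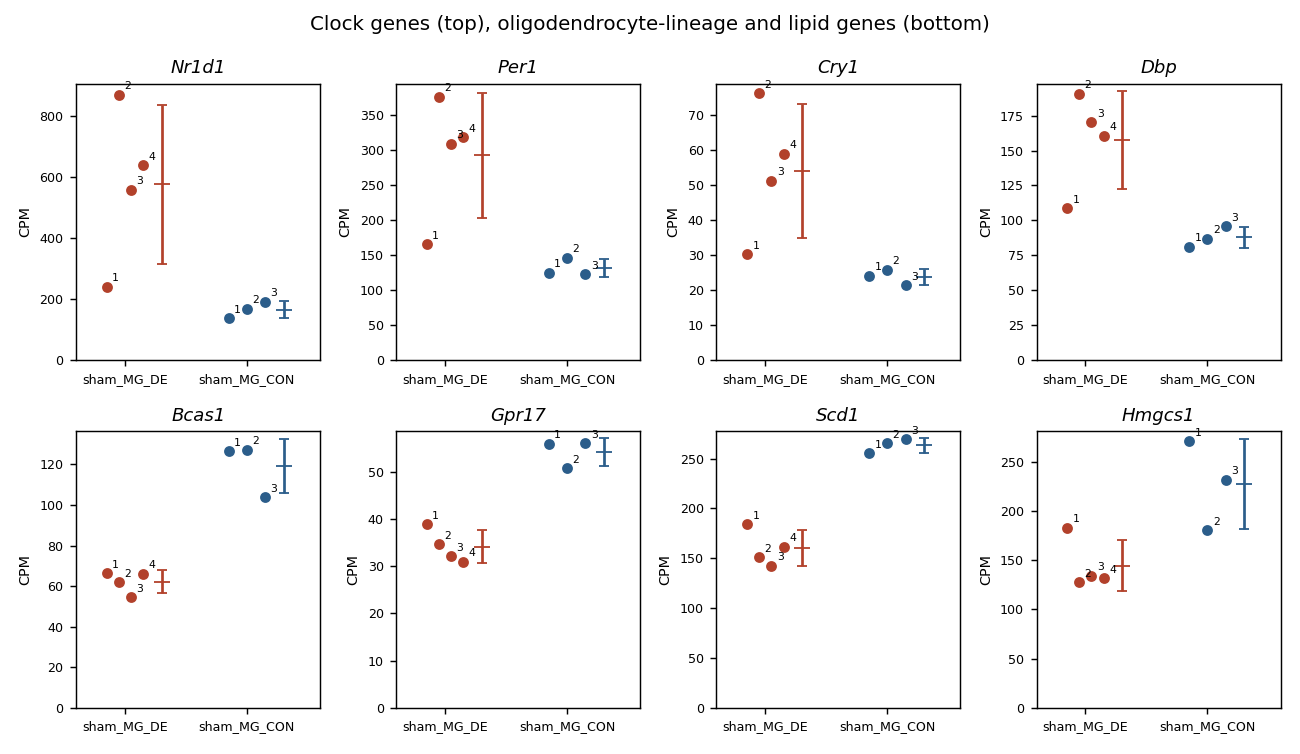
CPM of 4 clock genes (top row) and of Bcas1, Gpr17, Scd1 and Hmgcs1 (bottom row) in the sham_MG_DE libraries (left in each panel) and the sham_MG_CON libraries (right); points carry the replicate number and bars show mean ± SD (n = 4 and 3). In the clock panels depleted library 1 is the lowest of its group and above every control. In the Hmgcs1 panel depleted library 1 lies above the lowest control.

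Circadian clock genes rose in 10 of 16 tested, with 0 lower and a median of 0.65, in a list with genes of both arms of the daily cycle. Nr1d1, a repressor that silences the clock activator Arntl, was at 239.1, 868, 557.1 and 637.3 CPM in depleted libraries against 136.1 to 190.2 CPM in control libraries (1.80 ± 0.31, edgeR adjusted p = 0.0057). Per1, which closes the feedback loop, was at 165.9, 376.6, 309.6 and 318.9 CPM in depleted libraries against 125, 146.2 and 122.5 CPM in control libraries (1.16 ± 0.22, edgeR adjusted p = 0.0087). Depleted library 1 was closest to the controls for each of them, and still above all 3. Cry1, the partner of the Per proteins, was at 30.1, 76.1, 51.1 and 58.8 CPM in depleted libraries against 24, 25.8 and 21.4 CPM in control libraries (1.19 ± 0.23, edgeR adjusted p = 0.0093). Dbp, an output factor of the clock, changed by 0.84 ± 0.16 (edgeR adjusted p = 0.0094). Thra overlaps Nr1d1 on the opposite strand and did not pass (-0.07, edgeR adjusted p = 0.65), and Sphk2 overlaps Dbp.

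Ciart, shown above for its 3 E-boxes, was at 26.4, 125, 74.8 and 51.8 CPM in depleted libraries against 15, 24.1 and 22.4 CPM in control libraries (1.76 ± 0.39, edgeR adjusted p = 0.016), and lost its call without control library 1 or 3 (up to 0.07). The clock list had 4 and 6 higher without control libraries 1 and 3 and 11 without depleted library 1. Nr1d1, Per1, Cry1 and Dbp kept their calls without each single library. The time of day at which brains were taken is not given and its part was not tested.

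Glucocorticoid targets were higher in 4 of 12 with 0 lower and a median of 0.61, and Per1 belongs to this list as well. The others were Cdkn1a, a cell cycle inhibitor, Sgk1, a stress-induced kinase, and the zinc finger factor Zbtb16. Sgk1 was at 97.2, 131.4, 140 and 152.4 CPM in depleted libraries against 79.1, 95.5 and 82.2 CPM in control libraries (0.61 ± 0.17, edgeR adjusted p = 0.04). Fkbp5, a chaperone induced by glucocorticoids, was at 48.8, 54.2, 88.7 and 131 CPM in depleted libraries against 28.4, 48.6 and 36.3 CPM in control libraries and missed the threshold (1.09 ± 0.34, edgeR adjusted p = 0.055), with libraries 3 and 4 the highest. It passed without depleted library 1 (0.017) and without tMCAO_MG_CON library 2 or 3. The list count was 6 without depleted library 1. It was 2 without depleted library 3 or 4, control library 1 or 2 or either tMCAO_MG_DE library, and 1 without control library 3. The calls of Cdkn1a, Sgk1 and Zbtb16 were those that ended (edgeR adjusted p up to 0.059, 0.13 and 0.14).

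Cell cycle genes were higher in 5 of 19, with 0 lower. Plk1, a mitotic kinase, was at 2.54, 3.91, 3.41 and 3.59 CPM in depleted libraries against 1.72, 1.14 and 1.41 CPM in control libraries, with no overlap (1.24 ± 0.23, edgeR adjusted p = 0.0078). Ccna2, a cyclin of S phase and mitosis, was at 4.97, 5.5, 5.55 and 6.04 CPM in depleted libraries against 2.63, 3.35 and 2.49 CPM in control libraries (0.97 ± 0.19, edgeR adjusted p = 0.011), and lost its call without control library 3 (0.054). The list count was 3, 3, 3 and 2 without depleted libraries 1, 2, 3 and 4, and 2 and 1 without control libraries 2 and 3. Plk1 kept its call in each of these fits.

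Several helicases and splicing factors rose by small amounts, and gene families chosen after the values were seen were counted for that reason. Of 54 DEAD- and DEAH-box RNA helicases tested 17 were higher and 0 lower, with 47 positive signs and a median of 0.23. Dhx36, which unwinds G-quadruplexes, was at 111.2, 131.9, 139.3 and 137.1 CPM in depleted libraries against 86.3, 94.3 and 87.7 CPM in control libraries (0.54 ± 0.08, edgeR adjusted p = 0.0024). Ddx24 was at 228.6, 280.4, 251.3 and 273.3 CPM in depleted libraries against 183.5, 192.4 and 193.6 CPM in control libraries (0.45 ± 0.07, edgeR adjusted p = 0.0039). Neither gene showed overlap. Splicing factors of the Prpf and Sf3 families were higher in 8 of 22, nucleoporins in 7 of 19 and chromatin helicases and lysine methylases and demethylases in 9 of 35, all with 0 lower. Importins and exportins had 7 higher and 2 lower of 19, tubulins 1 and 5 of 20, cytosolic ribosomal proteins 1 and 4 of 81, mitochondrial ribosomal proteins 5 and 0 of 77 and proteasome subunits 1 and 0 of 39. Zinc finger genes, a family of 352 tested, had 24 higher and 16 lower, shares near those of all genes, 6.85% higher and 4.49% lower. The shares of both ribosomal protein families and of proteasome subunits were also near or below those of all genes.

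These family counts moved with the libraries, as did those of all genes. Helicase calls numbered 26 without depleted library 1, 10 without depleted library 2 or 4, 8 without control library 1 and 11 without control library 2 or 3. Splicing factor calls ran from 2 to 13, nucleoporin calls from 3 to 13 and chromatin gene calls from 2 to 14 when single libraries were left out, highest without depleted library 1 in each family, and zinc finger calls from 4 to 41 higher and from 2 to 36 lower. The lowest counts, other than for zinc finger genes, were those without depleted library 4 or control library 3 for splicing factors, depleted library 4 or control library 1 or 2 for nucleoporins and control library 1 for chromatin genes.

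Mitochondrially encoded genes were lower in 10 of 13 with a median of -0.29, and took 8.74%, 7.84%, 8.6% and 7.95% of counts in depleted libraries against 9.85%, 9.58% and 9.69% in control libraries. The shares did not overlap, with the smallest p the exact permutation test allows, 0.0571. The count of lower genes was 1 without depleted library 2 or 4, 0 without control library 1 or 3 and 4 without control library 2. Leaving these genes out of the library totals gave 1097 higher and 812 lower genes overall. Eef2, the elongation factor that diphtheria toxin inactivates, was at 1075.3, 1007.8, 1008.8 and 982.9 CPM in depleted libraries against 1243.4, 1233.8 and 1200.9 CPM in control libraries (-0.27 ± 0.05, edgeR adjusted p = 0.0075), with no overlap. The 6 Dph genes tested, which make the diphthamide on this factor that the toxin modifies, did not pass (edgeR adjusted p = 0.42 to 0.75), nor did Hbegf, whose human counterpart is the toxin's receptor (edgeR adjusted p = 0.22).

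Among neuronal genes, synaptic vesicle and transporter genes had 0 calls by edgeR of 16 and glutamate and GABA receptor subunits 0 of 13. Over all genes tested 6.85% were higher and 4.49% lower, and lists this short cannot tell 0 calls from such shares. An unadjusted p under 0.05 was reached by 4 genes of each list, and DESeq2 called 0 in both. Without depleted library 1, 2 and 3 of them were lower. Syt1, the calcium sensor of vesicle release, was at 2250.1, 1841.8, 1863.7 and 1872.6 CPM in depleted libraries against 2264.2, 2215.7 and 2354.6 CPM in control libraries (-0.22 ± 0.08, edgeR adjusted p = 0.084). It passed without depleted library 1 (0.0071). Among neuronal signals to microglia, Cx3cl1, the ligand of Cx3cr1, was at 989.5, 787.7, 753.2 and 643.3 CPM in depleted libraries against 965.1, 714.7 and 823.8 CPM in control libraries, which overlapped (edgeR adjusted p = 0.89). Cd200, an inhibitory ligand for myeloid cells, was at 88.7, 92.8, 91.9 and 104.7 CPM in depleted libraries against 79.7, 75.3 and 68.7 CPM in control libraries (0.34 ± 0.08, edgeR adjusted p = 0.024), a call that ended without depleted library 2 or 4 or control library 2 or 3 (up to 0.1).

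A group of 11 transcripts restricted to tissues outside the brain had been chosen on these libraries in earlier work, so their rise in 11 of 11 is a description. Their sum was 8.76, 119.8, 80.7 and 68.5 CPM in depleted libraries against 1.61, 2.39 and 2.82 CPM in control libraries. Depleted library 1 was above the controls and far below the other depleted libraries. In other genes too depleted library 2 was the highest and depleted library 1 the lowest of its group, above the controls. Trim17, a ubiquitin ligase, was at 15.2, 107.3, 81.2 and 69.7 CPM in depleted libraries against 11.1, 10.7 and 10 CPM in control libraries (2.69 ± 0.48, edgeR adjusted p = 0.0069). Rgs16, a brake on G protein signalling, was at 12.6, 69.8, 47.2 and 53 CPM in depleted libraries against 9.66, 10.5 and 11.7 CPM in control libraries (edgeR adjusted p = 0.01). Both were picked out after their values were seen, and Trim17 overlaps Hist3h2a on its own strand. Csf1r, at 7.57 CPM in depleted library 1, lay within the range of the other depleted libraries.

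The fit without depleted library 3 and control library 2, which shared high blood genes, held 19 lower genes of the 22 microglial surface and secreted-protein genes, 13 of the 20 of Trem2 signalling and Fc receptors, 5 of the 17 of complement, 4 of the 14 microglial transcription factors, 3 of the 16 Toll-like receptors and co-receptors, 2 of the 7 of colony-stimulating factors and 1 of the 15 of TGF-beta. Of genes higher in depleted libraries it held 8 border macrophage markers, 5 of the 11 tissue-restricted transcripts, 3 DEAD- and DEAH-box helicases, 2 pan-reactive astrocyte genes, 1 complement gene, 1 endothelial activation gene, 1 gene of disease-associated microglia and 1 NF-kB response gene. It called 1 committed precursor gene lower. Of zinc finger genes 1 was higher and 1 lower. It called 1 CC chemokine or receptor gene lower and none higher. It called no gene of the splicing factor, nucleoporin, chromatin, importin, tubulin, ribosomal protein and proteasome families, none of the CXC chemokine, lymphocyte, A2 and homeostatic astrocyte, earlier precursor, blood-brain barrier and fibroblast lists, and no circadian clock, glucocorticoid target, cell cycle, myelin, cholesterol synthesis or mitochondrially encoded gene. That fit has 3 depleted and 2 control libraries.

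The same comparison in occluded mice shares no library with the sham comparison, but both were read from the same fit. The filter, the scaling and the estimate of spread were shared, so the calls of these comparisons are not independent. In occluded mice 1586 genes were higher, 9.36% of those tested, and 1569 lower, 9.26%. Of the genes called higher in sham mice 605 were also higher after occlusion, 52.1% of the sham list and 38.1% of the occluded list, and 422 of those called lower were lower there too, 55.5% and 26.9%. Opposite calls numbered 8 and 2. The sign was shared by 1107 of the sham rises, 95.3%, and by 735 of the sham falls, 96.7%. Microglial surface genes were lower in 20 of 22 after occlusion, clock genes higher in 6 of 16 and glucocorticoid targets in 8 of 12. Border macrophage genes were higher in 5 and lower in 2, and NF-kB genes higher in 3.

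For 8 genes, 0.0472% of those tested, the depletion effect itself differed between occluded and sham mice. Lilrb4a was at 3.21 and 2.89 CPM in tMCAO_MG_DE libraries against 4.97, 8.01, 10.8 and 6.84 CPM in tMCAO_MG_CON libraries. It thus fell after occlusion (-1.32) and rose in sham mice (2.76), and the difference was -4.08 ± 0.51 (edgeR adjusted p = 0.019). Lilr4b differed by -6.41, the chemokine Ccl12 by -6.65, the B cell and myeloid receptor Cd180 by -3.06 and Tlr13 by -1.64. Lpl, lipoprotein lipase, was at 8.24 and 7.39 CPM in tMCAO_MG_DE libraries against 29.8, 32.3, 40.2 and 28.9 CPM in tMCAO_MG_CON libraries, while in sham mice it did not pass (0.11 ± 0.20, edgeR adjusted p = 0.76), a difference of -2.18. Yipf6, a Golgi protein, was at 18.3 and 15.7 CPM in tMCAO_MG_DE libraries against 49.1, 50.4, 50.7 and 51.3 CPM in tMCAO_MG_CON libraries and 38.8 to 45.5 CPM in sham_MG_DE libraries against 43.9 to 44.6 CPM in sham_MG_CON libraries (difference -1.51 ± 0.12, edgeR adjusted p = 0.00014). Lingo3 rose more after occlusion, by 0.80. Differences for Gfap (-1.53 ± 0.27, edgeR adjusted p = 0.089), Icam1 (-1.73 ± 0.45, 0.25) and F13a1 (-1.11 ± 0.34, 0.33) did not pass.

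This count also moved with the libraries. It was 15 without sham_MG_DE library 1 and 5 and 1 without sham_MG_DE libraries 2 and 3. It was 2 and 3 without sham_MG_CON libraries 1 and 3, and 3 and 5 without tMCAO_MG_DE libraries 1 and 2. DESeq2 gave 111.

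**Figure D5:**
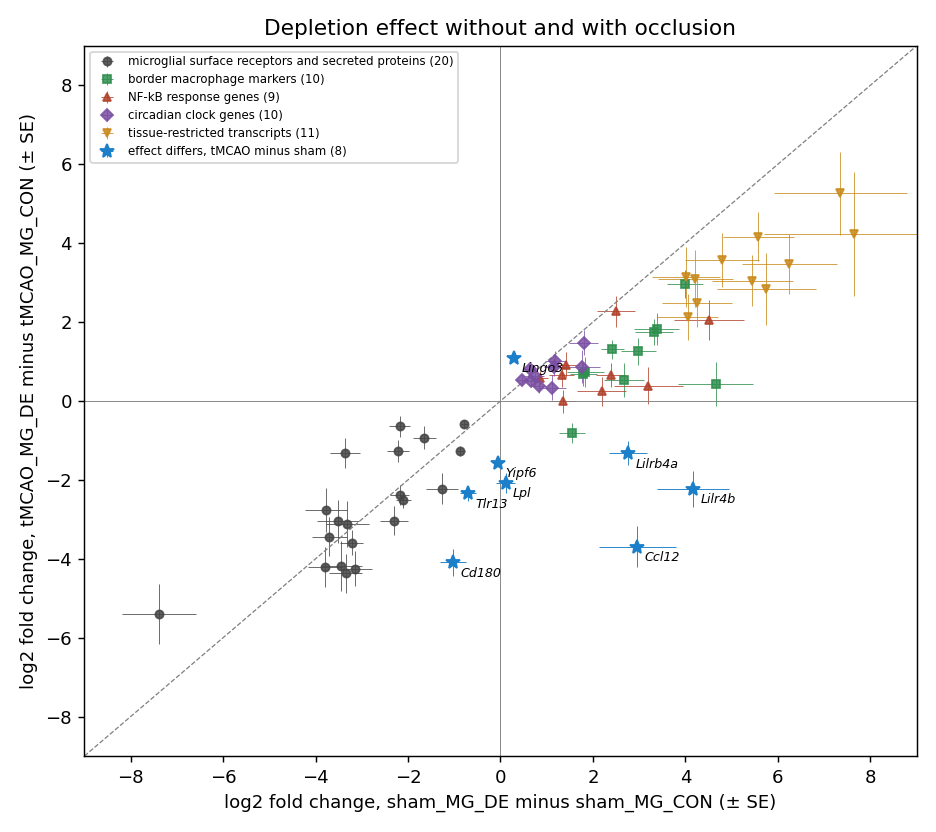
Log2 fold change after depletion in sham mice (horizontal axis, sham_MG_DE minus sham_MG_CON) and in occluded mice (vertical axis, tMCAO_MG_DE minus tMCAO_MG_CON) for the genes called in the sham comparison in 5 lists, with SE bars, and for the 8 genes whose effect differed (stars); the dashed line marks equal effects. Fitted folds of genes with 0 to 3 counts in a group, such as Adora3, Folr2 and Lilr4b, depend on the prior count; Lilrb4a, Lilr4b and Ccl12 lie to the right of 0 on the horizontal axis and below 0 on the vertical one.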

How the data were processed

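Brain RNA was sequenced as paired-end TruSeq libraries, per the labels' protocols. The authors deposited, per the file headers, counts per gene and FPKM values for each library in 4 tables, 1 for each group. The submitters' processing notes name Cufflinks 2.1.1, Cuffdiff and mm10. The counting strand is not given in the sources used here. Entries that repeated a symbol were summed, and 25 names in each sham table that read as dates were left out.

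The 21056 genes present in all 4 tables entered 1 edgeR 4.0.16 model (R 4.3.3) of 4 group means over 13 libraries with TMM scaling and filterByExpr, which kept 16940. The quasi-likelihood test was read at a Benjamini-Hochberg adjusted p of 0.05. FPKM values, as deposited, served for the expression minimum of 5 FPKM and as an alternative. The test was checked on simulated data with known changes. Those data had the same relative spread for every gene and no library effects beyond total counts. The check thus does not cover the dependence on single libraries. Single sums were tested by exact two-sided permutation. Coordinates are from GENCODE vM21 (GRCm38).

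The comparison and the gene lists were chosen with earlier results of these data known. Named genes were the 12 rises and 12 falls with the smallest p among called genes without overlap and with at least 5 FPKM, up to 6 genes of each list, and cell type markers, of which some are not reported here. Gene families, the E-box motif and the Hmgcs1 and Ciart promoters were chosen after values were seen. Alternatives were RLE scaling, DESeq2 1.42.0, other filters, log2(FPKM + 0.1) and log2(FPKM + 1) with limma 3.58.1, the 7 sham libraries alone, no mitochondrial genes, a replicate block and single libraries left out. Replicate numbers did not pair the samples. Intervals of count ratios cover counting error only.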

Additional observations from a re-analysis of the deposited data

Results flagged for a closer look

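In the 4 sham_MG_DE libraries, the values of the named genes, lists and sums were checked for a library far from the rest, by its gap to the nearest of the others over the whole range, and 14 were found, 9.46% of those checked. Chance gives about 1 in 20 for independent values, but these overlap: S100a8, S100a9, their sum and the neutrophil markers share genes, as do the hemoglobin and red cell sets, so the share is not compared with it. Depleted library 3 was highest for S100a8 (0.974), S100a9 (0.979), their sum (0.983), hemoglobin genes (0.883), neutrophil markers (0.86) and red cell genes (0.871), and lowest for Ccr2 (0.861). Depleted library 1 was lowest for Kpna1 (0.866) and Snw1 (0.905) and highest for Hmgcs1 (0.882) and Syt1 (0.925). Depleted library 2 was highest for Csf1 (0.917) and Siglec1 (0.876) and lowest for Tlr9 (0.85).

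For 8 genes the depletion effect after occlusion minus that in sham mice passed the test in edgeR. The log2 difference was -6.65 for Ccl12, -6.41 for Lilr4b, -4.08 for Lilrb4a, -3.06 for Cd180, -2.18 for Lpl, -1.64 for Tlr13, -1.51 for Yipf6 and 0.80 for Lingo3.

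Genes listed in the sham tables alone, which entered no comparison, had counts in depleted library 3 for transcripts of gut, pancreas and gland. Clca1 had 232, Mptx1 101, Car1 45, Gcg 41, Agr2 38, Zg16 27, Klk1 25 and Guca2a 20 counts there. For Gcg, which encodes glucagon, control library 2 had 36 counts. Control libraries held such transcripts as well: Ins2, an insulin gene, had 75 counts in depleted library 3 and 75 in control library 2, and the growth hormone gene Gh had 59 and Gm28635 had 770 counts in control library 1, with 0 in the other sham libraries for each of these 3 genes.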

How the results depend on the processing

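The counts of genes depended on which libraries entered the fit. Against 1161 higher and 760 lower genes, leaving out single libraries gave 349 to 2040 higher and 234 to 1685 lower, and 1 to 15 against 8 genes whose depletion effect differed between occluded and sham mice. The 7 sham libraries alone gave 372 higher and 273 lower. Without depleted library 3 and control library 2 together, 82 were higher and 137 lower, and 1 effect differed. RLE scaling, DESeq2, filters on low counts, FPKM and totals without mitochondrial genes kept the higher and lower counts within 1.5 times, but 111 effects differed with DESeq2, 23 with limma on log2(FPKM + 0.1) and 32 on log2(FPKM + 1). The cause was not tested.

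With a replicate block 492 genes were higher and 331 lower, and 2 effects differed. The numbers only name samples here: deviations of same-numbered libraries correlated at 0.10, -0.01 and -0.04, and 1 of 3 control libraries correlated best with its own number, so the pairing is not used.

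Of 135 named genes tested 104 were called. Of these 70 kept their call without each of the 13 libraries, and no named gene reversed. Low-count genes are limited by depth.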

Other observations

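Kpna1, an importin that carries proteins into the nucleus, was at 53.3, 62.4, 61.2 and 61.3 CPM in sham_MG_DE libraries against 173.1, 170.9 and 174.9 CPM in sham_MG_CON libraries. In occluded mice it was at 204.3 and 58.6 CPM in tMCAO_MG_DE libraries against 55, 49, 170.8 and 168.6 CPM in tMCAO_MG_CON libraries, so libraries of 1 group held either a high or a low level. The sham change was -1.54 ± 0.44 (edgeR adjusted p = 0.04) and lost its call without any 1 of the 7 sham libraries (up to 0.098). Kpna1 lies on chromosome 16 from 35978750 to 36037131 (GRCm38). It was picked out after its values were seen.

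Ttbk2, a kinase needed for cilia that overlaps Cdan1 on its own strand, was at 41.9, 17.5, 26 and 27.9 CPM in sham_MG_DE libraries against 156, 155.7 and 156.5 CPM in sham_MG_CON libraries (-2.46 ± 0.33, edgeR adjusted p = 0.0012). In occluded mice it was at 130 and 37.5 CPM in tMCAO_MG_DE libraries against 134.7 to 152.8 CPM in tMCAO_MG_CON libraries. For both genes tMCAO_MG_DE library 1 was the high one of its group. Plekhb1 was at 70.1, 77.6, 72.1 and 72.1 CPM in sham_MG_DE libraries against 159, 157.6 and 134.7 CPM in sham_MG_CON libraries (-1.04 ± 0.15, edgeR adjusted p = 0.0025). In occluded mice it was at 73.3 and 104.2 CPM in tMCAO_MG_DE libraries against 102.4, 113.3, 70.1 and 113.9 CPM in tMCAO_MG_CON libraries. Ttbk2 and Plekhb1 were also picked out after their values were seen.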
